A study of Mus musculus with 10 samples.

Results

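Fgfr2, Fgfr3 and Fgfr4, which encode receptors for fibroblast growth factors (FGFs), and Spry1, Spry2, Spry4, Dusp4, Dusp6, Etv1 and Etv4, which FGF receptors and other receptor tyrosine kinases induce through the kinase ERK, were examined in sorted epithelial cells of the newborn mouse lung. Members were chosen by gene symbol, and all 10 were measured, of 22180 genes in all. Where a gene had more than 1 probe set, the one with the highest mean over all 10 Affymetrix arrays was used. The cells came from mouse lungs at postnatal day 4 and were labelled as type 2 alveolar epithelial cells (AEC2s), which make surfactant and can become AEC1s, the flat type 1 cells of gas exchange. SP-C+ cells (5 arrays) were sorted by YFP from SftpcCreERT2-R26REYFP mice after 24 h of lineage tracing. In these mice a tamoxifen-dependent Cre under the control of Sftpc, the surfactant protein C gene, switches on the reporter. Axin2+ cells (5 arrays) came from Axin2CreERT2-TdTom mice, in which Cre is driven by Axin2, a target of Wnt signalling, and were sorted as TdTomato+, EpCAM+, CD31- and CD45-, a gate that names no AEC2 marker. No source used here gives the tracing time of the Axin2+ cells. Both lines were on a mixed background (C57BL/6, 129S6 and CD-1), and the labels record no treatment. A description shared by all samples also names adult cells, but every title and age label gives postnatal day 4. The comparison sets cells labelled as Wnt-responsive against cells labelled as AEC2s in general, and mouse line, reporter and gate cannot be told apart from the cell label. The labels do not say that replicates are separate animals, so p-values measure the spread between these samples, which may be technical.

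FGFs bind receptors on the cell surface together with heparan sulfate, and the activated receptor signals through adaptor proteins and Ras to the kinases MEK and ERK. ERK signalling induces its own brakes: Sprouty proteins act on the path from receptor to ERK, and the DUSP phosphatases remove the activating phosphates from MAP kinases. It also induces ETS transcription factors of the PEA3 group, to which Etv1, Etv4 and Etv5 belong. In the lung, mesenchymal FGF10 and FGF7 act on epithelial FGFR2, and this signal drives branching of the embryonic airways and maintains AEC2s, while FGFR3 and FGFR4 act in alveolar development.

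AEC2 markers were bright in both groups, with Sftpc at means of 14.02 in SP-C+ and 14.11 in Axin2+ arrays and Sftpb, another surfactant protein gene, at 13.92 and 13.88. The highest value of any probe set was 14.06 to 14.16 per array, so these markers lay at or near the top of the scale, where equal values do not show equal amounts of RNA. Each of the 11 AEC2 markers was, in the SP-C+ arrays, brighter than the median gene. In Axin2+ arrays 2 of 11 were called lower, beside 8.95% of all genes, and 8 of 11 with arrays centred, beside 19.9%. Between groups 6 of 11 did not overlap (15.0% of all genes). The summed, mostly near-ceiling linear level of the 11 lay between 108400 and 111339 in SP-C+ and between 98164 and 104567 in Axin2+ arrays. Markers of other epithelial cells moved with the groups. The summed linear level of 12 AEC1 markers lay between 18635 and 21949 in SP-C+ and between 47593 and 57473 in Axin2+ arrays, and all 12 were called higher. The median difference was 2.78 on the log2 scale, and the brightest markers, Ager and Emp2, had the smallest differences, 0.71 and 0.68, against 1.04 to 4.54 for the others. That of 11 measured ciliated cell markers lay between 1329 and 1566 and between 6969 and 7910 (9 called higher, among them Tppp3 by 2.70, and 1 lower, Ccno, by 0.75), and that of 6 club cell markers between 1833 and 3912 and between 12165 and 15076 (6 higher, Scgb1a1 by 2.73 and Cyp2f2 by 1.87). Of 7 measured proliferation markers 6 were higher (Mki67 by 1.76, while Pcna, at -0.15, was not called), and their sum ran from 2635 to 3721 in SP-C+ and from 3180 to 5534 in Axin2+ arrays. Of other lists, 1 of 7 measured leukocyte markers was higher (Csf1r, by 2.50) and 1 lower, beside Cd68, not called at -0.66. Of 8 mesenchymal markers (Col1a1, Acta2 and others) 1 was lower, and 0 of 6 endothelial (Pecam1, Cdh5 and others), 0 of 2 measured basal (Trp63, Krt14) and 0 of 2 measured neuroendocrine markers (Chga, Syp) were called in limma. SP-C+ replicate 1 held the highest endothelial sum, 1655 against 502 to 866 in the other SP-C+ and 574 to 696 in Axin2+ arrays. SP-C+ replicates 4 and 5 stood apart from replicates 1, 2 and 3 in the mean log2 level of the proliferation markers (7.72 and 8.05 against 6.78 to 6.88). Fits that left out either part follow this split, which was read from these same values. Without replicates 1, 2 and 3 only SP-C+ replicates 4 and 5 faced the 5 Axin2+ arrays, and 12.8% of all genes were called, against 17.6% with all arrays. Of the 7 proliferation markers, from which the split was read, 2 were then higher, with a median difference of 0.76 against 1.72. Of AEC1, ciliated and club cell markers 12 of 12, 9 of 11 and 5 of 6 were then higher. Calls gained or lost in that fit rest on few arrays. The part of the marked cell types in the results on FGF genes was not tested. In bulk RNA, fewer cells of a type and less RNA per cell cannot be told apart.

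Of the 10 genes, 1 was higher in Axin2+ arrays (Fgfr3), 3 were lower (Dusp4, Etv1 and Fgfr2) and 6 did not pass the threshold, an adjusted p under 0.05 in limma with Benjamini-Hochberg adjustment over all genes. Of all genes tested, 17.6% were called, 8.61% higher and 8.95% lower. Differences were below 0 for 8 of the 10 members, with a median of -0.15 on the log2 scale (Axin2+ minus SP-C+), and for 60.1% of all genes, with a median of -0.04. In 4 members (Fgfr2, Spry1, Spry2 and Dusp4) every Axin2+ array lay below every SP-C+ array, as was so for 7.66% of all genes, and in 0 members every Axin2+ array lay above (7.38% of all genes; 15.0% did not overlap in either direction). With each array centred on its median gene, which lowered every difference by 0.09, 0 members were higher and 6 were lower. Of all genes tested, 19.9% were then called lower, against 8.95% before centring. Calls over all genes went from 1909 higher and 1985 lower (51.0% of calls lower) to 1561 and 4412 (73.9% of calls lower).

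**Figure D1:**
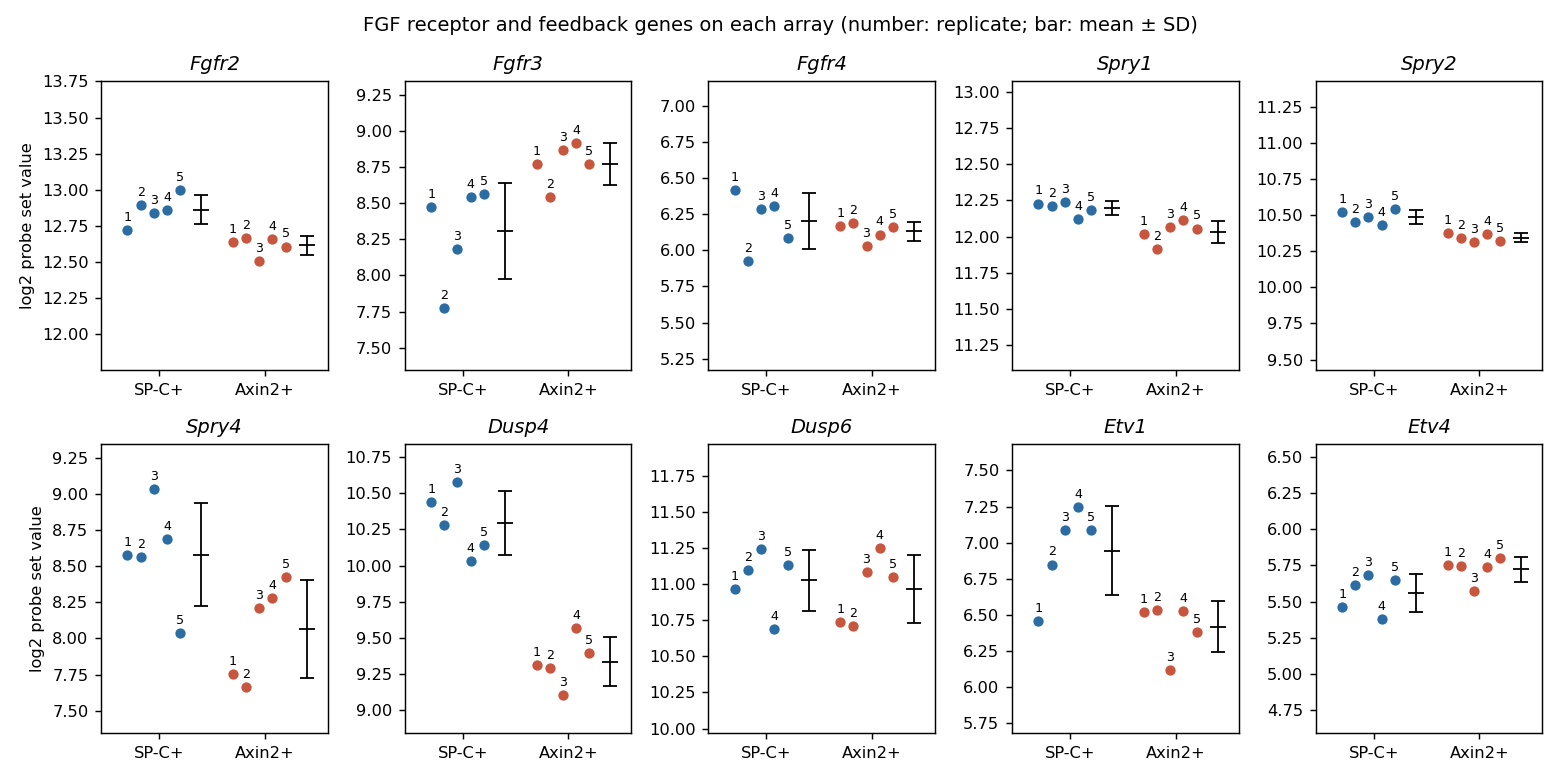
Log2 probe set values of the 10 genes on the 5 SP-C+ (blue) and 5 Axin2+ (red) arrays, 1 panel per gene, each panel spanning the same number of log2 units; digits beside the points are replicate numbers and the bars are the group mean ± SD. Dusp4 shows the widest gap between groups, from 9.57 in the highest Axin2+ array to 10.03 in the lowest SP-C+ array.

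**Figure D2:**
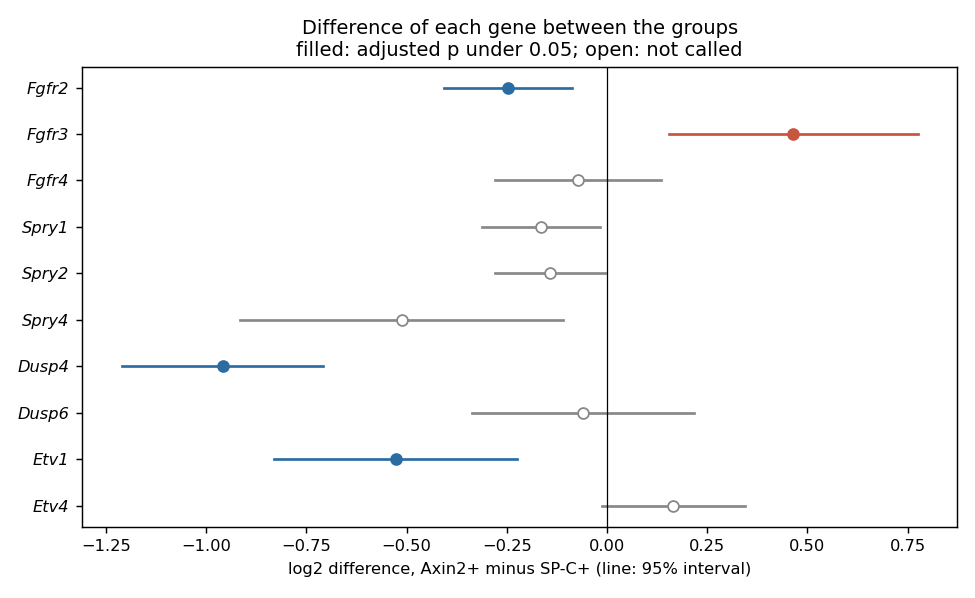
Log2 difference between the group means (Axin2+ minus SP-C+) of each gene with its 95% confidence interval from limma; filled points passed an adjusted p under 0.05 (red higher, blue lower) and open points did not. Dusp4, at -0.96, lies farthest from 0, and Fgfr3 is the only filled point to the right of 0.

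Among the receptors, Fgfr2 was slightly lower and Fgfr3 moderately higher in Axin2+ arrays. Fgfr2, the receptor for FGF7 and FGF10 in epithelium, measured 12.72, 12.89, 12.84, 12.86 and 13.00 in SP-C+ replicates 1 to 5 and 12.64, 12.67, 12.51, 12.66 and 12.61 in Axin2+ replicates 1 to 5. All 5 Axin2+ arrays lay below all 5 SP-C+ arrays. In SP-C+ arrays Fgfr2 was at least as bright as Ager (12.44 to 12.72) and Emp2 (12.42 to 12.69), so the size of its difference may be understated. The means were 12.86 ± 0.10 and 12.62 ± 0.06 (SD, n = 5 each), 1.19-fold lower (log2 difference -0.25 ± 0.07 SE, adjusted p = 0.0348 in limma; exact two-sided permutation p = 0.00794, the smallest that the 252 assignments of the arrays allow). The call for Fgfr2 was narrow: it was lost when any single array other than SP-C+ replicate 1 was left out (adjusted p = 0.0519 to 0.0934 in limma), and with SP-C+ replicates 4 and 5 left out together (-0.20, adjusted p = 0.118).

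Fgfr3 measured 8.47, 7.78, 8.18, 8.54 and 8.56 in SP-C+ replicates 1 to 5 and 8.77, 8.54, 8.87, 8.91 and 8.77 in Axin2+ replicates 1 to 5. The groups overlapped, since Axin2+ replicate 2 lay below the highest SP-C+ array, while the other 4 Axin2+ arrays lay above all SP-C+ arrays. Fgfr3 was 1.38-fold higher (0.46 ± 0.14 SE, adjusted p = 0.0412 in limma with n = 5 per group, exact permutation p = 0.0238). Its level varied more in SP-C+ (SD 0.33) than in Axin2+ arrays (SD 0.14), and SP-C+ replicate 2 was the lowest of all arrays. Without that array the difference was 0.33 (adjusted p = 0.0549 in limma). The call was also lost without SP-C+ replicate 3 or Axin2+ replicate 1, 3, 4 or 5 (adjusted p up to 0.0938), with arrays centred (0.37, adjusted p = 0.0757), and with SP-C+ replicates 1, 2 and 3 left out together (0.22, adjusted p = 0.254).

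Fgfr4, whose receptor acts alongside FGFR3 in forming alveoli, did not differ beyond the spread between replicates. It lay between 5.92 and 6.42 in SP-C+ and between 6.03 and 6.19 in Axin2+ arrays, and all Axin2+ values fell within the SP-C+ range. The difference was -0.07 with a 95% interval from -0.28 to 0.13 (adjusted p = 0.677 in limma, n = 5 per group; exact permutation p = 0.468). The probe set was dim, above the array's median gene on 1 of 10 arrays, and dim probe sets understate changes.

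The receptors that were called moved in opposite directions, and the stretches around a start site of each are shown. RefSeq (GRCm38.p6) windows of 300 bases, from 250 before a transcript start to 50 after it, were searched for 7 of the 10 genes, with 9 start sites. No window of Dusp4 or Etv4 was found. Spry4 was not searched either, because the search of member windows left a whole chromosome out. The count over all RefSeq windows, given below, applied no such filter. The window of Fgfr2 at chr7:130266759-130267058 (minus strand) held 43.7% G and C, and that of the first Fgfr3 start at chr5:33721474-33721773 (plus strand) held 69.7%, read 5′ to 3′:
Fgfr2: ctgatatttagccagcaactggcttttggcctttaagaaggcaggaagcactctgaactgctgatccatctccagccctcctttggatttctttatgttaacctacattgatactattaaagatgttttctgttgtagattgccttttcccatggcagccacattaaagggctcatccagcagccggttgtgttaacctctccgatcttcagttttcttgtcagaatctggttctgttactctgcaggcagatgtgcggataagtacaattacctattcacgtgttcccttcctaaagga
Fgfr3: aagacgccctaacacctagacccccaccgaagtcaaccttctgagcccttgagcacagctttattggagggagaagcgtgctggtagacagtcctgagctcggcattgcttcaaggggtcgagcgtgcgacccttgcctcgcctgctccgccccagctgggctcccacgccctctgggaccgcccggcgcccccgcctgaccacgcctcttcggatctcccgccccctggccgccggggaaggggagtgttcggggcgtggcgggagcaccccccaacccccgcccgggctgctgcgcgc
Neither window held, on either strand, GGAAGT (a core bound by ETS factors), TGANTCA (AP-1) or CTTTGAT (TCF/LEF, the factors of Wnt signalling), so nothing is in capitals. These letters occur in 23.8%, 7.81% and 3.73% of all 32851 RefSeq windows of this length. The window of Fgfr4, which was not called, held 65.3% G and C, and that of the second Fgfr3 start 73.0%. Whether base composition bears on the direction of a difference was not tested. Which transcript start the cells used was not measured.

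The 3 Sprouty genes were all lower on average in Axin2+ arrays, but none passed the threshold. Spry1 and Spry2, intracellular inhibitors of receptor tyrosine kinase signalling, differed little but evenly. Spry1 measured 12.23, 12.21, 12.24, 12.12 and 12.19 in SP-C+ replicates 1 to 5 and 12.02, 11.91, 12.06, 12.11 and 12.06 in Axin2+ replicates 1 to 5. Every Axin2+ array lay below every SP-C+ array, with Axin2+ replicate 4 and SP-C+ replicate 4 almost touching. The difference was -0.16 (95% interval -0.31 to -0.02, adjusted p = 0.125 in limma, exact permutation p = 0.00794, n = 5 per group). Spry2 lay between 10.43 and 10.54 in SP-C+ and between 10.31 and 10.38 in Axin2+ arrays, again without overlap. Its difference was -0.14 (95% interval -0.28 to -0.0050, adjusted p = 0.155 in limma, exact permutation p = 0.00794). With arrays centred on the median both passed, at -0.26 (adjusted p = 0.0188) and -0.23 (adjusted p = 0.0194).

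Spry4 showed a larger difference and a wider spread. It measured 8.57, 8.56, 9.03, 8.68 and 8.04 in SP-C+ replicates 1 to 5 and 7.75, 7.66, 8.21, 8.28 and 8.43 in Axin2+ replicates 1 to 5. The low SP-C+ array, replicate 5, fell among the Axin2+ arrays, and Axin2+ replicates 1 and 2 were the lowest of all. The difference of -0.51 ± 0.19 SE did not pass (adjusted p = 0.0789 in limma, exact permutation p = 0.0635, n = 5 per group). Leaving out SP-C+ replicate 5 gave a call (-0.65, adjusted p = 0.0192), as did leaving out SP-C+ replicates 4 and 5 together (-0.66, adjusted p = 0.0334) and centring the arrays (-0.60, adjusted p = 0.0293). With SP-C+ replicates 1, 2 and 3 left out the difference was -0.30 (adjusted p = 0.497).

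The phosphatases differed from each other: Dusp4 fell and Dusp6 did not pass. Dusp4, which encodes a nuclear MAP kinase phosphatase induced by ERK, measured 10.44, 10.28, 10.58, 10.03 and 10.14 in SP-C+ replicates 1 to 5. In Axin2+ replicates 1 to 5 it measured 9.31, 9.29, 9.11, 9.57 and 9.39. The groups did not overlap, and the gap between them was about as wide as the range of the Axin2+ arrays. Mean levels were 10.29 ± 0.22 and 9.33 ± 0.17 (SD, n = 5 each), 1.94-fold lower in Axin2+ (log2 difference -0.96 ± 0.12 SE, adjusted p = 6.99e-05 in limma; exact permutation p = 0.00794). The Dusp4 call held in all 22 alternative fits, with differences from -1.10 to -0.75 and adjusted p-values of 0.00382 or lower. The difference was largest without SP-C+ replicates 4 and 5 and smallest without SP-C+ replicates 1, 2 and 3.

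Dusp6, the cytoplasmic phosphatase that acts on ERK and a common readout of FGF signalling, measured 10.97, 11.09, 11.24, 10.69 and 11.13 in SP-C+ replicates 1 to 5 and 10.74, 10.71, 11.08, 11.25 and 11.05 in Axin2+ replicates 1 to 5. Low and high arrays occurred in both groups, with SP-C+ replicate 4 and Axin2+ replicates 1 and 2 low. The difference was -0.06 with a 95% interval from -0.34 to 0.22 (adjusted p = 0.811 in limma, exact permutation p = 0.698, n = 5 per group). A dimmer Dusp6 probe set lay between 4.63 and 4.99 in SP-C+ and between 4.43 and 4.87 in Axin2+ arrays (-0.19, adjusted p = 0.339 over all probe sets in limma).

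Etv1 was lower in Axin2+ arrays, while Etv4 was not called. Etv1, an ETS transcription factor gene of the PEA3 group, measured 6.46, 6.85, 7.09, 7.25 and 7.09 in SP-C+ replicates 1 to 5 and 6.52, 6.54, 6.12, 6.53 and 6.38 in Axin2+ replicates 1 to 5. SP-C+ replicate 1 lay among the Axin2+ arrays, and the other 4 SP-C+ arrays lay above all of them. The level was 1.44-fold lower (-0.53 ± 0.14 SE, adjusted p = 0.0199 in limma with n = 5 per group, exact permutation p = 0.0317). Without SP-C+ replicate 1 the Etv1 difference was -0.65 (adjusted p = 0.00165 in limma). That array also had the highest endothelial and mesenchymal marker sums and the highest Cd68, whose part in its Etv1 level was not tested. The Etv1 call was lost without Axin2+ replicate 3 (-0.45, adjusted p = 0.0557) and with SP-C+ replicates 4 and 5 left out together (-0.38, adjusted p = 0.102). A second, dimmer Etv1 probe set ran the same way, between 5.87 and 6.42 in SP-C+ and between 5.50 and 6.01 in Axin2+ arrays, but did not pass (-0.33, adjusted p = 0.185 over all probe sets in limma; exact permutation p = 0.0714).

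The window of the first Etv1 start, at chr12:38779832-38780131 (plus strand), is shown as the 1 of the 9 windows that held GGAAGT, in capitals, and 0 of the 9 held TGANTCA or CTTTGAT:
Etv1: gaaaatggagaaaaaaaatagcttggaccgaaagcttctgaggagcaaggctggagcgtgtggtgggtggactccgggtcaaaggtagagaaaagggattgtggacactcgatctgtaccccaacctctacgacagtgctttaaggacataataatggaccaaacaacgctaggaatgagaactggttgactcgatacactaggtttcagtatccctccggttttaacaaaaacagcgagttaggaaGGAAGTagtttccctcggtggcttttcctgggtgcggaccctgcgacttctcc
The match begins 3 bases before the annotated start and overlaps no other motif searched. The letters alone do not show that a factor binds there.

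Etv4, another PEA3 group gene that FGF signalling induces in lung epithelium, lay between 5.38 and 5.68 in SP-C+ and between 5.57 and 5.80 in Axin2+ arrays. Of the 5 Axin2+ arrays, 4 lay above all SP-C+ arrays and replicate 3 lay among them. The difference was 0.16 (95% interval -0.01 to 0.34, adjusted p = 0.209 in limma, exact permutation p = 0.0556, n = 5 per group). This probe set was below the median gene on all 10 arrays. Etv5, the PEA3 gene that AEC2s are known to depend on, was added after its values were seen: it measured 12.36 ± 0.14 in SP-C+ and 12.02 ± 0.24 in Axin2+ arrays (SD, n = 5 each), a difference of -0.34 that missed the threshold (adjusted p = 0.0615 in limma). Etv5 passed with arrays centred (-0.44, adjusted p = 0.0144) and in 2 of 10 fits with a single array left out.

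Within the groups, single arrays were high or low in some of the genes and not in others. Axin2+ replicates 1 and 2 had the lowest Spry4 and Dusp6 values of their group and the highest means of the proliferation markers (9.02 and 8.83 against 7.93 to 8.52), but their Dusp4 values lay inside the range of the other Axin2+ arrays. Axin2+ replicate 3, the array with the highest AEC1 marker sum (57473), had the lowest Fgfr2, Fgfr4, Spry2, Dusp4, Etv1 and Etv4 of its group. SP-C+ replicate 3 had the highest Spry1, Spry4, Dusp4, Dusp6 and Etv4 of the SP-C+ arrays, and SP-C+ replicate 5 the highest Fgfr2, Fgfr3 and Spry2 and the lowest Spry4. The part of proliferating cells or AEC1s in these values was not tested.

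**Figure D3:**
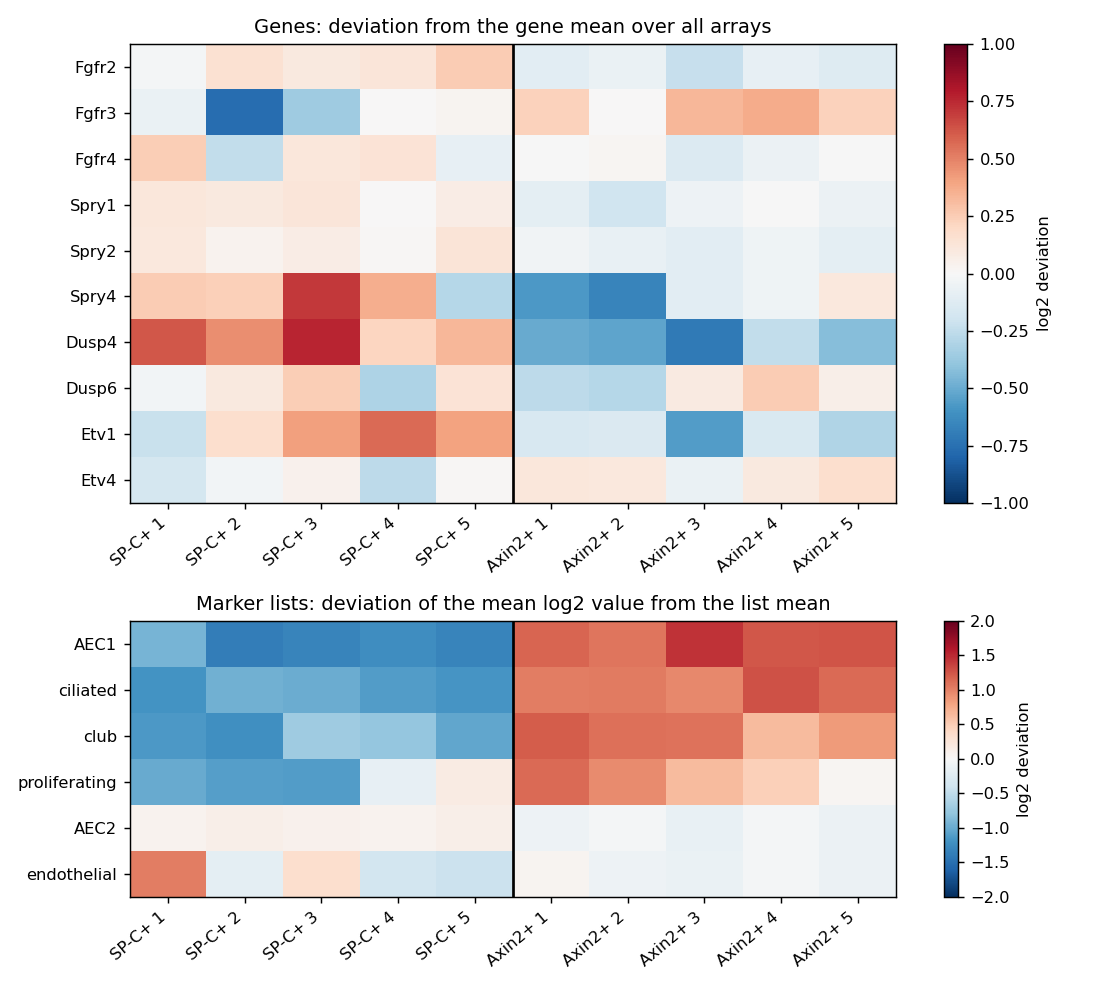
Colour gives, for each array (columns; the vertical line parts SP-C+ from Axin2+), the log2 deviation of each gene from its mean over all 10 arrays (top) and the deviation of the mean log2 value of each marker list from its own mean (bottom; the colour scale is wider). Dusp4 is red in every SP-C+ array and blue in every Axin2+ array, Spry4 and Dusp6 are bluest in Axin2+ replicates 1 and 2 among Axin2+ arrays, and AEC1, ciliated and club cell lists are blue in SP-C+ and red in Axin2+ arrays.

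Among the genes of the FGF ligands, 2 of 18 measured were higher and 0 lower, beside 8.61% of all genes higher. In SP-C+ arrays 5 of the 18 were above the median gene, and dim probe sets carry little information on a difference. Fgf18, which acts in cartilage and in alveolar development, lay between 6.90 and 7.64 in SP-C+ and between 9.74 and 10.44 in Axin2+ arrays, without overlap. Fgf18 was 6.87-fold higher (2.78 ± 0.16 SE; limma, adjusted p = 7.28e-08, n = 5 per group), beside AEC1 markers with the same median difference, whose part in it was not tested. Fgf1, a ligand of all FGF receptors, rose 1.48-fold from a range of 9.63 to 10.05 to a range of 10.25 to 10.61 (0.57 ± 0.10 SE, adjusted p = 0.00132). Both calls held with any single array left out and with either part of the SP-C+ arrays left out (replicates 4 and 5, or 1, 2 and 3). The list median was -0.0011, against -0.04 over all genes. The genes of the mesenchymal ligands, Fgf10 and Fgf7, were dim (means of 4.69 and 5.23 over all arrays) and not called (0.12 and -0.16, adjusted p = 0.428 and 0.582 in limma).

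Of 11 measured genes that build or modify heparan sulfate 3 were higher and 0 lower, beside 8.61% and 8.95% of all genes. The count higher was 2 with arrays centred, and 2 with SP-C+ replicates 1, 2 and 3 left out. The list, which included the sulfatase genes Sulf1 and Sulf2, had a median of 0.04 (-0.05 with arrays centred). Hs2st1, which adds sulfate to the uronic acid of heparan sulfate, lay between 9.09 and 9.59 in SP-C+ and between 10.85 and 11.35 in Axin2+ arrays and rose 3.47-fold (1.79 ± 0.11 SE, adjusted p = 1.62e-07 in limma). Hs6st2, a sulfotransferase of its glucosamine, rose by 1.29 ± 0.17 from a dim level, and Ext2, of the enzyme that extends the chain, by 0.32 ± 0.08. Ext2 lost its call with arrays centred (adjusted p = 0.0619) and with SP-C+ replicates 1, 2 and 3 left out together (adjusted p = 0.183). Of 4 other receptor and coreceptor genes 1 was higher, Fgfrl1, which encodes a receptor without a kinase domain (0.33 ± 0.08 SE, adjusted p = 0.0155). Fgfrl1 lost its call under the same alternatives (adjusted p = 0.0564 and 0.169). Fgfr1, the receptor more typical of mesenchyme, was not called (-0.21, adjusted p = 0.245). With SP-C+ replicates 1, 2 and 3 left out it was called lower (-0.43, adjusted p = 0.0289), and the list turned to 0 higher and 1 lower.

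Of 17 measured adaptor and Ras-ERK genes, which act between receptor and ERK, 6 were lower and 0 higher, beside 8.95% of all genes lower, and the median was -0.14. Sos2, an exchange factor that loads Ras, fell by 0.51 on the log2 scale (SE 0.09, adjusted p = 0.00207 in limma) and Map2k1, which encodes the ERK kinase MEK1, by 0.51 (SE 0.09, adjusted p = 0.00223). Plcg1, a phospholipase that FGF receptors bind, fell by 0.37 (adjusted p = 0.0155) and the adaptor gene Shc1 by 0.34 (adjusted p = 0.00731), and in these 4 genes the groups did not overlap. Map2k2, another of the 6, had overlapping groups (-0.30, adjusted p = 0.0349 in limma). It kept its call in 2 of 10 fits with a single array left out (adjusted p up to 0.0873). With SP-C+ replicates 1, 2 and 3 left out 3 genes were lower, beside 6.02% of all genes lower, and Plcg1 and Shc1 missed (adjusted p = 0.0578 and 0.0923). Plcg1 also missed, at 0.0533, with SP-C+ replicates 4 and 5 left out, and 6 genes were then lower.

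Of 6 other feedback genes 1 was higher (Flrt3) and 1 lower (Spred2) in limma, beside 8.61% and 8.95% of all genes. The list held the other Sprouty and Spred genes, Il17rd, which encodes Sef, and Flrt3, which is of none of these families. Flrt3, which encodes a membrane protein that associates with FGF receptors, rose 2.70-fold (1.43 ± 0.16 SE, adjusted p = 2.66e-05 in limma), from a range of 8.34 to 9.23 to a range of 10.01 to 10.40. Spred2, a relative of the Sproutys that blocks Ras signalling, fell by 0.36 (SE 0.08, adjusted p = 0.00885). Of 8 other MAP kinase phosphatases 1 was higher and 3 were lower, beside 8.61% and 8.95% of all genes, but with SP-C+ replicates 1, 2 and 3 left out 2 were higher and 0 lower. Dusp7, a cytoplasmic ERK phosphatase like Dusp6, rose by 0.61 ± 0.10 (adjusted p = 0.00126). Dusp9 fell by 0.66 (SE 0.17, adjusted p = 0.0149), Dusp16 by 0.41 (SE 0.10, adjusted p = 0.0112) and Dusp2 by 0.23 (SE 0.07, adjusted p = 0.0375). None of these 3 falls was called once SP-C+ replicates 1, 2 and 3 were left out (adjusted p = 0.227, 0.223 and 0.298), whereas Dusp10, not called over all arrays (0.35, adjusted p = 0.448), then was (0.97, adjusted p = 0.0369). When single arrays were left out, Dusp2 kept its call in 1 of 10 fits, and its highest adjusted p, 0.0893, came with Axin2+ replicate 2 left out.

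Of 17 other ETS factor genes 1 was higher and 2 were lower, shares close to those over all genes (8.61% and 8.95%), with a median of -0.13. With arrays centred 1 was higher and 6 were lower, beside 19.9% of all genes lower. With SP-C+ replicates 4 and 5 left out 1 was higher and 4 were lower, beside 9.82% of all genes lower. Ets1 rose by 0.76 ± 0.15 (adjusted p = 0.00359 in limma, n = 5 per group), while Ets2 fell by 0.44 (SE 0.07, adjusted p = 8.02e-04) and Elf5, an epithelial ETS gene of embryonic lung tips, by 0.46 (SE 0.07, adjusted p = 7.60e-04). Of 8 other measured ERK output genes 2 were higher and 1 lower, and with SP-C+ replicates 1, 2 and 3 left out 2 and 0. Epha4, an ephrin receptor gene, rose by 0.79 ± 0.08 (adjusted p = 2.19e-05), and Ccnd1, cyclin D1, by 0.89 ± 0.21 (adjusted p = 0.0106), whereas Myc fell by 0.72 (SE 0.16, adjusted p = 0.00835). Ccnd1 and Myc lost their calls once SP-C+ replicates 1, 2 and 3 were left out (adjusted p = 0.121 and 0.186), whereas Ier3, not called over all arrays (0.55, adjusted p = 0.0899), then was (0.98, adjusted p = 0.0137). These changes too rest on SP-C+ replicates 4 and 5 alone.

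**Figure D4:**
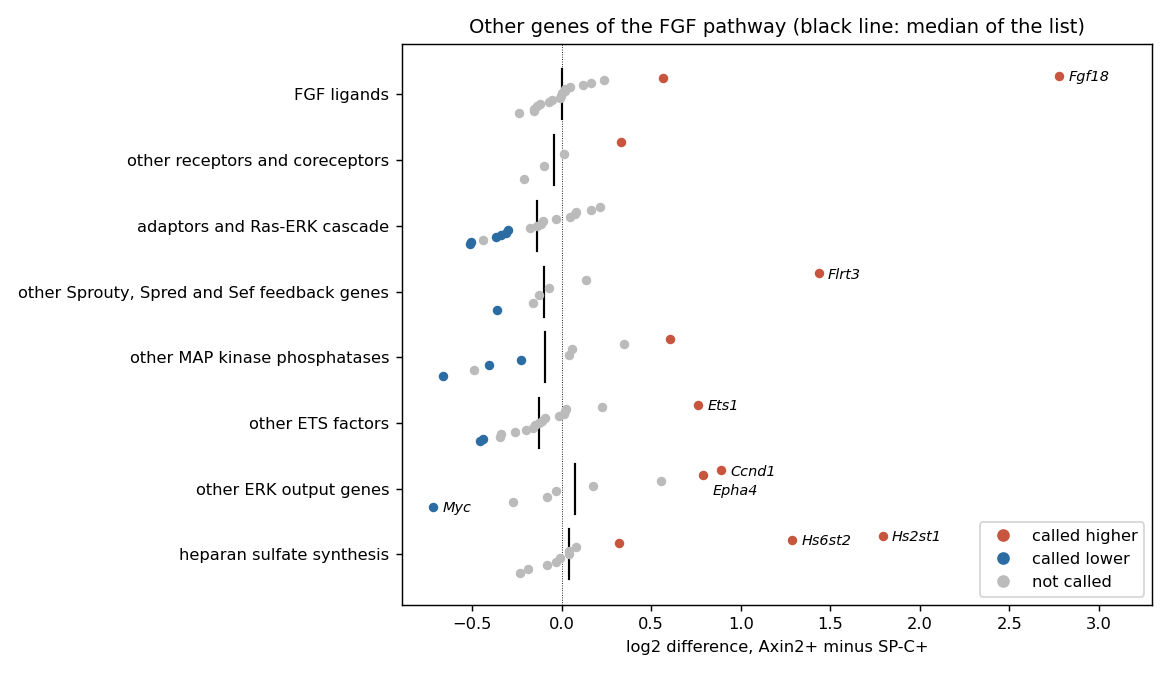
Log2 difference (Axin2+ minus SP-C+) of every measured gene in 8 lists of FGF pathway genes other than the 10 members, 1 row per list and 1 point per gene, coloured by whether the gene was called higher (red), lower (blue) or not (grey); black lines are list medians. Fgf18, at 2.78, lies farthest from 0, and the blue points of the adaptor and Ras-ERK list lie between -0.51 and -0.30.

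The genes whose profile over the 10 arrays was most like that of the called members without overlap were found by the root mean square (RMS) difference of gene-centred log2 values. For Dusp4 these were Amigo1 (RMS difference 0.13 log2 units) and Akr1c19 (0.13), at differences of -0.93 and -0.87 between the groups. For Fgfr2 they were Ppm1b (0.04) and Emb (0.04), at -0.26 and -0.24. All 4 were called lower as well, as a profile like a called member's implies.

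**Figure D5:**
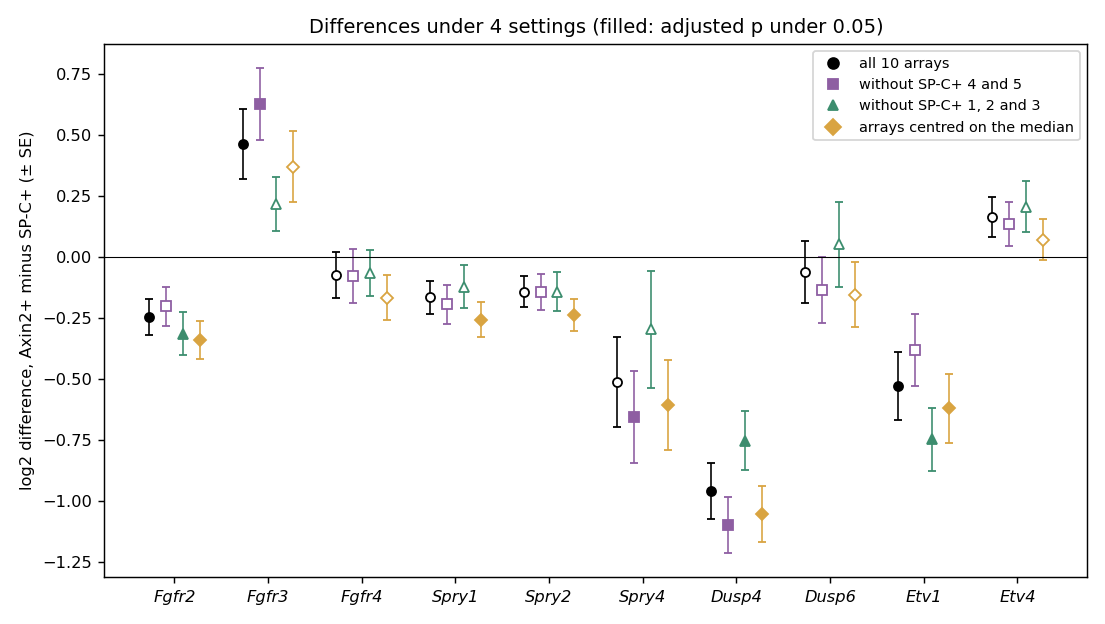
Log2 difference ± SE of each gene with all 10 arrays (black circles), without SP-C+ replicates 4 and 5 (purple squares), without SP-C+ replicates 1, 2 and 3 (green triangles) and with each array centred on its median (yellow diamonds); filled symbols passed an adjusted p under 0.05. Dusp4 is filled under all 4 settings, Fgfr2, Fgfr3, Spry1, Spry2, Spry4 and Etv1 each change between filled and open, and Fgfr4, Dusp6 and Etv4 are open under all 4.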

How the data were processed

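RNA of 10 samples (5 per group, by title) was hybridised to Affymetrix arrays, from 100 ng of total RNA per the labels' protocols. The authors deposited normalized log2 values for 41345 probe sets. Base 2 follows from their range. Tools named in the submitters' processing notes are oligo, RMA and limma, with no versions or roles. Background signal makes such values understate changes of dim genes, and the number of arrays limits the precision.

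The platform's annotation gave 1 symbol to 23521 probe sets, and the brightest per gene left 22180 genes. No probe set with several symbols named a member. Differences between groups came from lmFit and eBayes of limma 3.58.1 (R 4.3.3, two-sided, no covariates). The fit was tried on simulated data with independent normal noise per gene. Those data held no shift of whole arrays and no mixture of cells, so the trial does not cover either. Members, gene lists and markers were chosen with earlier results of these data known. Named were the members, up to 4 called genes per pathway list with the largest differences, and the 2 most alike genes per called member without overlap. Fgf10, Fgf7, Fgfr1, Dusp10, Ier3, Etv5, Il17rd, Map2k2, Sulf1 and Sulf2 were added after their values were seen. Of each marker list the 2 brightest genes were named. Genes without a probe set of 1 symbol were not counted in their lists. Exact permutation tests ran over all 252 assignments. Alternatives were a replicate block, 2 scalings, 2 filters on dim genes, other uses of probe sets, trend and robust variances, array weights, a Y-linked covariate, a stricter threshold and leaving out arrays. Promoter windows are from RefSeq.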

Additional observations from a re-analysis of the deposited data

Results flagged for a closer look

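In the Axin2+ arrays Etv4 had a low value in replicate 3, 5.57 against 5.74 to 5.80 in the other 4, and the gap was 0.719 of the whole range. Sos2 had a high value in SP-C+ replicate 1, 11.15 against 10.68 to 10.80 in the other 4, with a gap of 0.750 of the range. The critical ratio for 5 samples is 0.71. Of 112 gene and group combinations examined 2 exceeded it, where chance would give about 5.6.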

How the results depend on the processing

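The counts of all genes called stayed within 1.5 times the reported ones, except for 4412 lower genes with arrays centred on the median and 919 lower at an adjusted p under 0.01; without 1 array they ranged from 1597 to 1950 higher and from 1377 to 2073 lower. Of the members, 1 higher and 3 lower became 0 and 6 with arrays centred, 0 and 1 with the Y-linked covariate, 0 and 1 at an adjusted p under 0.01, 0 higher with all probe sets tested and 0 higher without SP-C+ replicates 1, 2 and 3. Without 1 array the higher members ranged from 0 to 1 and the lower from 1 to 3. Over all genes, 1909 higher and 1985 lower became 1615 and 1540 with the Y-linked covariate. They became 1330 and 919 at an adjusted p under 0.01, and 1504 and 1335 without SP-C+ replicates 1, 2 and 3. With all probe sets tested, which outnumber the genes, 2115 were higher and 1821 lower. The share of all genes called was 17.6% with all arrays and 13.4% to 18.1% without 1 array. Whether the members changed more than all genes was not tested. Dusp6, never called, changed sign to 0.013 with the Y-linked covariate and 0.053 without SP-C+ replicates 1, 2 and 3, and without 1 array ranged from -0.14 (SP-C+ replicate 4) to 0.0041 (Axin2+ replicate 2). With the Y-linked covariate Dusp4 alone was called among the members (Fgfr2, Fgfr3 and Etv1 at adjusted p = 0.0923, 0.111 and 0.0522 in limma), and with all probe sets tested Fgfr2 also missed (0.0649). The cause of these shifts was not tested. No pairing by replicate number was seen: same-numbered arrays correlated at -0.23 to 0.01 in their deviations from the group means, and 0 of 5 SP-C+ arrays correlated best with their own number. A weak pairing would be missed by this check. With the replicate block 1608 genes were higher and 1371 lower, and Fgfr2 was not called (-0.25, adjusted p = 0.0957 in limma), while Fgfr3, Dusp4 and Etv1 were. Signal near background limits Fgfr4 and Etv4.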
